A study of Mus musculus with 18 samples.

Results

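The adipogenic mix IDMB was compared with UT in C3H10T1/2 cells, a line of mouse embryo fibroblasts that can turn into fat, bone, cartilage or muscle cells under different stimuli. The comparison took the 3 arrays titled IDMB and the 3 titled UT out of 18 arrays in all. IDMB held 10 µg/mL insulin, 1 µM dexamethasone, 0.5 µM IBMX (the dose as the labels give it) and 1 µM BRL49653, and was given for 24 h. Neither group received EGF or TCDD. The labels do not spell out UT and name no vehicle for it, so it was read as the group without IDMB, EGF and TCDD. At collection both groups had last been given serum 72 h before and had been confluent for 24 h, and each array carried mRNA pooled from 6 cultures of this 1 cell line. Nothing in the labels says that the replicates were grown at different times, so the p-values measure the spread between these arrays, which may be technical. The other 12 arrays, 2 in each of 6 groups, held cells given 10 nM TCDD for 72 h, 10 nM EGF for 24 h or both, with or without the mix. They lent their spread to the test and gave the same comparison 3 more times on arrays of their own.

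Each part of the mix acts on a known pathway. Dexamethasone activates the glucocorticoid receptor, which binds DNA and induces genes such as Fkbp5, Per1 and the metallothioneins. IBMX blocks the phosphodiesterases that break down cyclic AMP, insulin acts through its own and the IGF1 receptor, and BRL49653 (rosiglitazone) is an agonist of PPARG, the nuclear receptor at the head of the fat cell programme. In preadipocytes the factors Cebpb and Cebpd come up early, Pparg and Cebpa follow, and the genes of lipid storage come later, while the actin stress fibres and collagens of the fibroblast are reduced.

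The values were signal intensities on a linear scale. Those under 143.5 (the 20th percentile of all values, here called the floor) were raised to it before log2 was taken. Of 12488 probe sets 7134 passed a filter on low levels and stood for 5438 genes, each represented by its probe set with the highest mean level. Array pairs within UT and within IDMB correlated with r of 0.922 to 0.948 over the 7134 probe sets that passed. Fibroblast markers such as Col1a1, Col1a2 and S100a4 were abundant in both groups. Vim, of the same panel, was not: it read 434, 495 and 776.5 in UT and 494, 245 and 294 in IDMB. It did not pass the filter. The summed intensity of 10 fibroblast markers ran from 503053 to 550988 in UT and from 278578 to 323502 in IDMB, and 4 of the 9 that were tested fell. Markers of mature adipocytes summed to 3378 to 4115 on UT arrays and 4899 to 6799 on IDMB arrays. Of the 3 tested only 1, Adipoq, was called (higher). Lep, which was not called, read 2143 to 2524 in UT and 1943 to 2841 in IDMB. Cidec, Retn and Slc2a4 did not pass the filter. Of the marker panels of other cells, 1 marker in each of 5 was at the floor on all 6 arrays: Myh3 of 6 for skeletal muscle, Myh11 of 5 for smooth muscle, Ptprc of 6 for macrophages, Cdh5 of 5 for endothelium and Krt19 of 5 for epithelium. Other members were above it on all 6, such as Cdh1 (1626 to 3364), Myod1 (1063 to 2164), Csf1r (529 to 919) and Pecam1 (428 to 838), and none of these 4 was called. In UT and IDMB the panels summed to 2578 to 3900 and 2068 to 3900 for skeletal muscle, 1292 to 1587 and 1585 to 3206 for macrophages, 1090 to 1855 and 676 to 1473 for endothelium, and 2553 to 4001 and 2327 to 4135 for epithelium. Their part in the results was not tested. These are bulk samples, in which fewer cells of a type and less RNA per cell cannot be told apart. One sign of RNA quality, the 3' to 5' ratio of the actin control probe sets, moved with the mix. It was 1.37, 1.43 and 1.37 on the UT arrays and 2.25, 1.83 and 1.80 on the IDMB arrays. Its part in the results was not tested beyond a fit with that ratio as a covariate. Counts from that fit are given with some lists and, for most others described, after the lists of matrix and adhesion genes. The same ratio for Gapdh overlapped between the groups.

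The mix changed about as many genes upward as downward. With limma's moderated test and a Benjamini-Hochberg adjusted p under 0.05, 390 of 5438 genes were higher in IDMB (7.17%) and 440 lower (8.09%), together 15.3%. Among probe sets the counts were 475 higher (6.66%) and 529 lower (7.42%) of 7134. More than 8-fold changes were seen for 30 probe sets upward and 17 downward. The median log2 difference over all genes tested was -0.02, so single changes below stand against a centre close to 0. Of 877 genes with several probe sets tested, 162 had at least 1 called; in 51 of these all were called one way, and in Mtm1 alone 2 probe sets were called in opposite directions.

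**Figure D1:**
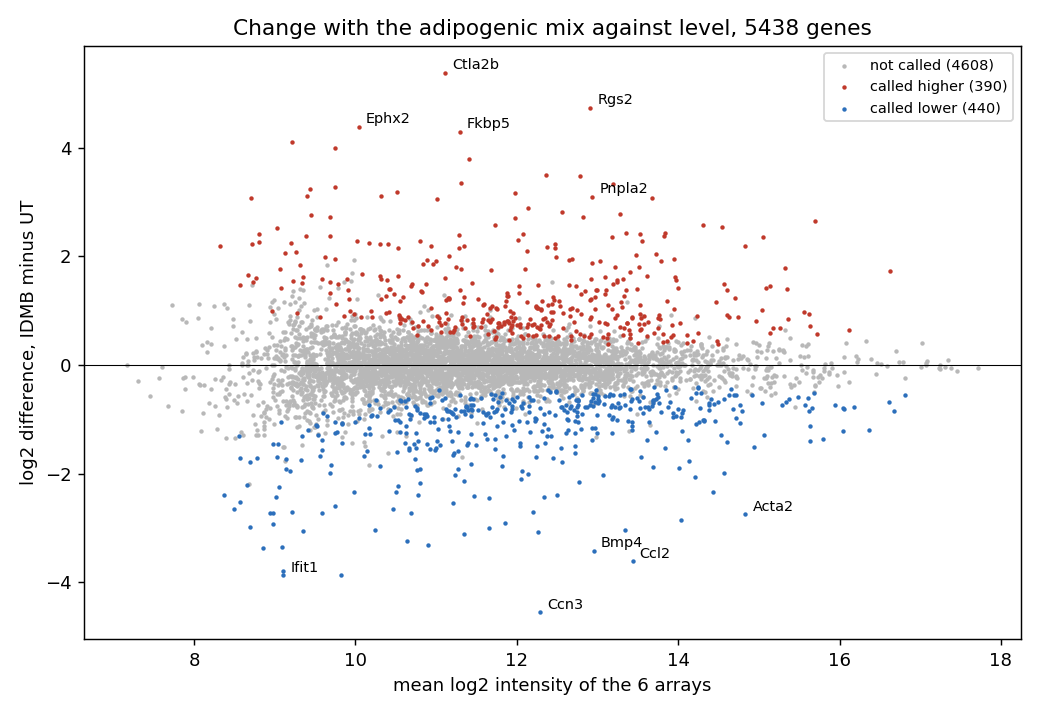
Log2 difference between IDMB and UT (vertical axis) against the mean log2 intensity of the 6 arrays (horizontal axis) for the 5438 genes tested, 1 point a gene. The 390 genes called higher are red, the 440 called lower are blue, the others grey, and the named points are genes described in the text. Called genes lie across the range of levels, and the cloud of other genes is centred near 0.

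Targets of the glucocorticoid receptor stood out among the genes that rose. Of 25 tested, 16 were higher and 3 lower (Timp3, Fgf7 and Cryab), with a median log2 difference of 1.73. Fkbp5, a co-chaperone that dampens the receptor itself, measured 1102, 376 and 439.7 on the UT arrays and 13338, 9902 and 10312 on the IDMB arrays. It was 19.6-fold higher (log2 SE 0.296, limma adjusted p = 6.92e-08, n = 3 against 3), with every IDMB array far above every UT array. Zbtb16, a zinc finger repressor, read 7.20, 29.3 and 12.8 in UT, all under the floor, and 2066, 675 and 1268 in IDMB. Against the floor it was at least 8.43-fold higher (SE 0.388, adjusted p = 4.56e-05).

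Other members rose within narrow limits between arrays. Errfi1, an inhibitor of the EGF receptor kinase, went from 2900.0, 3109 and 2841 in UT to 28266, 27031 and 33993 in IDMB, 10.05-fold (SE 0.178, adjusted p = 4.76e-09). Dusp1, the phosphatase that switches off MAP kinases, measured 2534, 3355 and 4158 in UT and 13296, 11813 and 12666 in IDMB, a 3.83-fold rise (adjusted p = 2.11e-04). Sgk1, a kinase that acts on ion transport, was 6.54-fold higher and Ddit4, an inhibitor of mTORC1, 5.17-fold (adjusted p = 1.01e-04 and 1.53e-04). In all 4 of these genes the lowest IDMB array exceeded the highest UT array. Groups without overlap, in either direction, were seen in 1512 of the 5438 genes tested (27.8%). Among called probe sets they were seen in 963 of 1004, so for a called gene such a statement adds little to the call. The metallothioneins, which bind zinc and copper, were high already in UT and varied there. Mt1 measured 9296, 46895 and 21690.5 in UT and 106434, 162204 and 136056 in IDMB, 6.29-fold (SE 0.470, adjusted p = 9.39e-04), and the fold was 4.17 without UT 1. Mt2, a close copy whose probe set may share signal with it, was 3.31-fold higher (adjusted p = 0.00196). Bcl6, a transcriptional repressor, rose 4.54-fold (adjusted p = 8.27e-05) and the clock gene Per1 2.42-fold (adjusted p = 0.00610). Some targets did not pass the test: Nfkbia, the inhibitor of NF-kappaB, had a log2 difference of 0.49 (adjusted p = 0.193), glutamine synthetase Glul one of 0.14 (0.839) and annexin Anxa1 one of -0.49 (0.164).

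Genes known to respond to cyclic AMP were split. Of 11 tested, 3 were higher (Rgs2, Per1 and Id1), Bdnf was lower and 7 were not called, with a median of 0.12. Rgs2 and Per1 are also counted among the higher genes of the glucocorticoid receptor list. Other lists share members too, so their counts are not independent. Rgs2, which speeds GTP hydrolysis by G alpha subunits and so limits receptor signalling, measured 1259, 2659 and 979.7 in UT and 44645, 38185 and 36738 in IDMB. The IDMB arrays lay close together and the rise was 26.7-fold (log2 4.74, SE 0.318, adjusted p = 4.88e-08). The neurotrophin Bdnf fell 2.07-fold (adjusted p = 0.00158). Nr4a1, an orphan receptor induced by CREB, had a log2 difference of 1.43 with SE 0.541 (adjusted p = 0.0966), and the phosphodiesterase Pde4b one of 0.88 (adjusted p = 0.176), so neither passed, though Nr4a1 did without UT 3 (0.00482). Of 21 cyclic nucleotide enzymes and kinases none was higher and 3 were lower, a count that was 1 without UT 2 or without IDMB 3. Among them Gnai2, the inhibitory G alpha subunit, fell 1.71-fold, from 100629, 101483 and 89417 to 60145, 55142 and 54969 (adjusted p = 8.27e-04).

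The promoters of Mt1 and Rgs2 are printed because they are members of these lists whose windows hold a searched motif. They are the 250 bases before the RefSeq transcription start in GRCm38.p6, read 5′ to 3′ on the gene's strand. Mt1 lies at chr8:94178839-94179088 (plus strand), with the glucocorticoid response element (GNACA and TGTNC with NNN between them) at -94 to -82 and a metal response element (TGCACNC or TGCGCNC) at -23 to -17 in capitals. Rgs2 lies at chr1:144004150-144004399 (minus strand), with 2 matches to TGACG (on either strand) at -185 to -181 and -67 to -63. TGACG is only a part of the full cyclic AMP response element TGACGTCA.
Mt1: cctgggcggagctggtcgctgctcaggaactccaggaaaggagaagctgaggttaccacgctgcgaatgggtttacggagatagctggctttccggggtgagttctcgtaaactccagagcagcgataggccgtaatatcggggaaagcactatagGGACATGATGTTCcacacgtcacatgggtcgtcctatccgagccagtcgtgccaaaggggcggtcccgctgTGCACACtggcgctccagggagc
Rgs2: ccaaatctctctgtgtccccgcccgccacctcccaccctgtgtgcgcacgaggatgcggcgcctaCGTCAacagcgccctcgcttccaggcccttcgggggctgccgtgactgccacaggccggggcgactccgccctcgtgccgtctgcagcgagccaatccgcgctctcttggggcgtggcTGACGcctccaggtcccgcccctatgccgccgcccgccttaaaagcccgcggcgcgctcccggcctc
These matches describe the letters only. The glucocorticoid element was found, on either strand, in 0.463% of all 27025 promoter windows of 300 bases, in 3 of 323 windows of genes called higher and in 1 of 21 windows of the receptor target list, which was Mt1. The partial site TGACG was found in 21.02% of all windows, 33.95% of the windows of genes tested and 34.7% of those of genes called higher. It was thus near the level of the genes tested. The windows of Fkbp5, Per1 and Rgs2 held no match to the glucocorticoid element. Those of Rgs2 and Per1 held no full cyclic AMP response element.

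Of the transcription factors that drive or restrain fat cell formation, 15 were tested, 10 rose and Klf4 fell, with a median of 1.08. Among those that rose, Zbtb16, Bcl6, Klf9 and Cebpd are also counted in the glucocorticoid receptor list. Cebpb, which opens the programme, measured 14698, 17607 and 14266 in UT and 35851, 40164 and 44770.0 in IDMB, a 2.59-fold rise (SE 0.164, adjusted p = 2.57e-05). Cebpd was 1.91-fold higher and Srebf1, a regulator of lipid synthesis genes, 2.15-fold (adjusted p = 8.51e-04 and 1.59e-05). The arrays of the groups did not overlap for any of these 3 (27.8% of all genes). Klf5, induced early by the C/EBP factors, went from 324, 433 and 447 to 1502, 2053 and 1259.8, 3.96-fold (adjusted p = 0.0100). With EGF and TCDD on both sides its log2 difference was -1.79 instead of 1.98. Klf4, a Kruppel-like factor of growth arrest and pluripotency, fell 7.54-fold, from 7523, 9814 and 14337 to 1922, 1216 and 1056 (SE 0.286, adjusted p = 3.62e-06). The 2 factors that follow, Pparg and Cebpa, were less secure. Pparg measured 1542, 1161 and 832 in UT and 4099.5, 2624 and 2273 in IDMB (2.54-fold, adjusted p = 0.0132), but it did not pass without UT 3 (adjusted p = 0.0639) or IDMB 1 (0.0648). Cebpa overlapped between groups, with 1724, 4328 and 7549.5 in UT and 6079, 12415 and 16147 in IDMB, and was not called without UT 1 (0.0791), IDMB 2 (0.0698) or IDMB 3 (0.0900), on the 6 arrays alone (0.112) or with no filter (0.0864).

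Genes that coat the lipid droplet or break down its triglyceride were mostly higher. Of 7 tested, 6 were higher and none lower, with a median of 2.35, against -0.02 over all genes. Pnpla2, the triglyceride lipase, measured 2729, 2429 and 2884 in UT and 24279.9, 23943 and 20749 in IDMB, 8.58-fold (SE 0.169, adjusted p = 5.22e-09). Its activator Abhd5 went from 2208, 1466 and 1177 to 21759.9, 16013 and 15634, 11.3-fold (SE 0.227, adjusted p = 3.34e-08). Both had groups that were far apart beside the spread within them. The next steps of lipolysis also rose, the diglyceride lipase Lipe by 6.82-fold and the monoglyceride lipase Mgll by 4.42-fold (adjusted p = 5.88e-05 and 4.80e-04). Plin2, a droplet coat protein, measured 10551, 19133 and 16950.3 in UT and 61174, 90973 and 81397 in IDMB, 5.10-fold (adjusted p = 5.93e-07). G0s2, an inhibitor of Pnpla2, had a log2 difference of -0.35 (adjusted p = 0.724) and was not called.

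Fatty acid and triglyceride synthesis gave 4 higher and 1 lower (Me1) of 12. The higher ones included the desaturase Scd1, which measured 4261, 3075 and 4126 in UT and 12331, 34661 and 40950.4 in IDMB (6.87-fold, adjusted p = 6.18e-05), and 2 enzymes that build triglyceride. Gpam, the first acyltransferase, rose 3.68-fold, and Dgat1, the last, 4.90-fold (adjusted p = 3.98e-06 and 1.10e-04). Fasn, fatty acid synthase itself, had a log2 difference of 0.39 (adjusted p = 0.0988, or 0.0245 without UT 3). Of 7 genes of fatty acid uptake and binding, Acsl4, an acyl-CoA synthetase, rose 1.98-fold and Cav1, the caveolae protein, fell 2.70-fold (adjusted p = 0.00309 and 0.00106). Fabp4, the fat cell lipid-binding protein, was not called (log2 0.86, adjusted p = 0.0978), though it passed with the floor at the 40th percentile (0.0297) or with no trend in the moderation (0.0419). Fatty acid oxidation gave 5 higher and none lower of 21, with a median of 0.19. Pdk4, the kinase that closes pyruvate dehydrogenase, rose 6.63-fold, from 6078, 2527 and 1429 to 39909.8, 17673 and 9069 (adjusted p = 8.09e-04), and the dehydrogenase Acadm 1.73-fold (adjusted p = 0.00550). With the actin 3' to 5' ratio as a covariate none of the 21 was called. Cpt1a, which admits fatty acids to mitochondria, had a log2 difference of -0.13 (adjusted p = 0.839).

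Of 7 secreted products of fat cells tested, 5 rose. Adipoq, the gene of adiponectin, measured 244, 332 and 311 in UT and 1589.5, 1593 and 1378 in IDMB (5.18-fold, SE 0.452, adjusted p = 0.00173). Agt, angiotensinogen, was 8.60-fold higher (adjusted p = 5.12e-04). Angptl4, an inhibitor of lipoprotein lipase, rose 4.70-fold by its brightest probe set (adjusted p = 0.00289), or 2.91-fold without UT 3. Its other probe sets gave log2 differences of 1.80 and -0.86 and were not called. The leptin gene Lep was not called (log2 -0.0025, adjusted p = 0.998). In cholesterol metabolism the 2 genes that rose export or move cholesterol, Abca1 by 5.34-fold and Npc1 by 1.79-fold (adjusted p = 3.19e-04 and 0.00689); Npc1 was not called on the 6 arrays alone (0.0538). The 4 of 13 that were lower (Hmgcs1, Sqle, Fdps and Msmo1) are enzymes of synthesis, and none of them was called without UT 1, without UT 3 or without IDMB 2, and 1 was with the actin covariate.

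**Figure D2:**
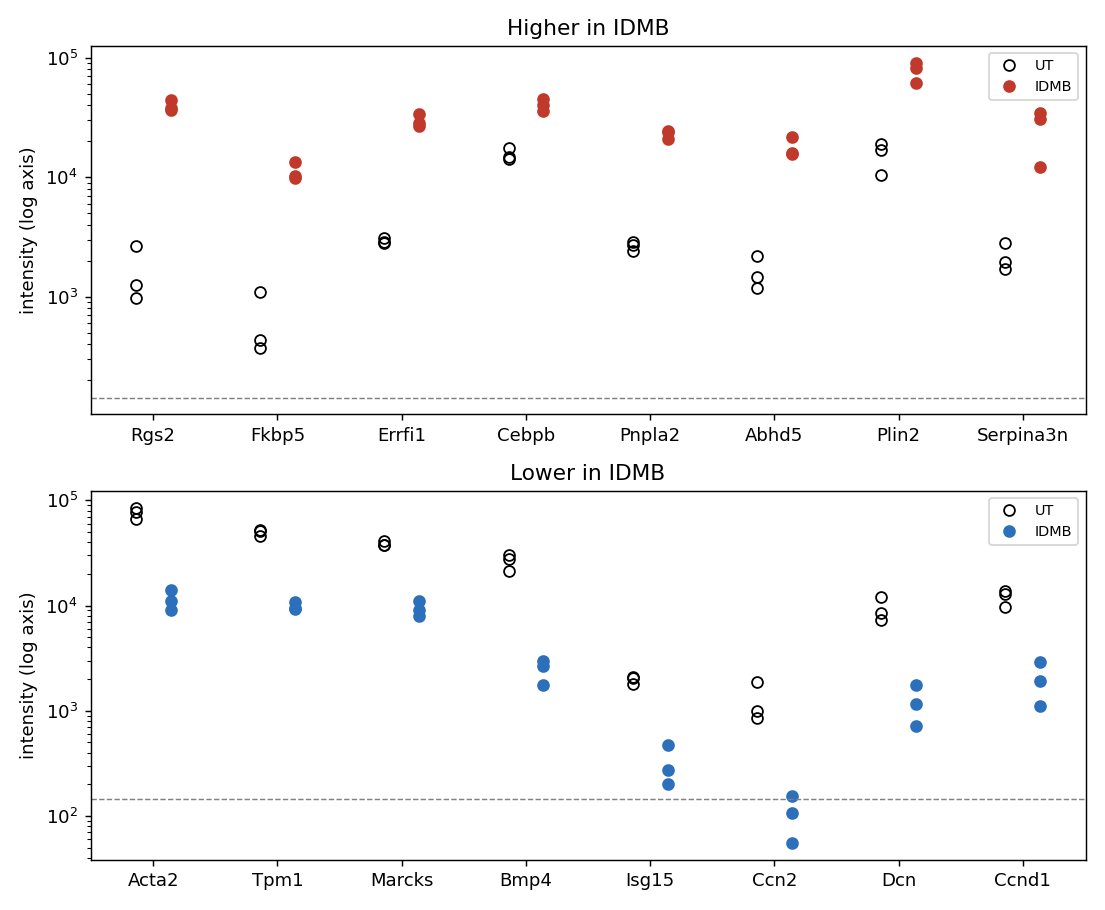
Intensity on each of the 6 arrays (log axis) for 16 genes named in the text, with UT arrays as open circles, IDMB arrays as filled circles and a dashed line at the floor of 143.5. Genes higher in IDMB are in the upper row and genes lower in IDMB in the lower row. For each of these genes all 3 IDMB arrays lie on one side of all 3 UT arrays.

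Secreted proteins of the acute phase and of complement moved in both directions: of 12 tested, 7 rose and 5 fell. Orm2, an orosomucoid or plasma carrier of the acute phase, read 80.5, 481 and 105 in UT, 2 of them under the floor, and 2353, 4509.8 and 3736 in IDMB (15.9-fold, SE 0.593, adjusted p = 1.88e-04). Its relatives Orm1 and, outside the list, Orm3 were 9.44-fold and 9.06-fold higher, the latter 5.20-fold without UT 2; the 3 genes are near-identical copies, and their probe sets may share signal. Serpina3n, an inhibitor of granzyme and other serine proteases, measured 1705, 2846 and 1941 in UT and 12106, 30761 and 34552 in IDMB, 11.1-fold (adjusted p = 8.46e-07). Haptoglobin (Hp) rose 5.80-fold, from 8506, 16181 and 7125 to 52184, 48046 and 76324 (adjusted p = 1.66e-04), lipocalin 2 (Lcn2) 3.44-fold and Saa3 3.49-fold (adjusted p = 0.00103 and 0.00248). On the other side, the copper oxidase ceruloplasmin (Cp) fell 5.49-fold, from 7295, 8620.5 and 6785 to 2584, 916 and 1088 (adjusted p = 1.85e-05). The complement protease C1ra fell 2.38-fold and its inhibitor Serping1 2.74-fold (adjusted p = 5.67e-04 and 0.00326).

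More genes induced by interferon fell than rose. Of 21 tested, 8 fell and 2 rose, with a median of -0.80. Ifit1, which binds viral RNA, measured 2326, 3154 and 1265 in UT and 55.5, 82.7 and 96.8 in IDMB, all 3 under the floor, a fall of at least 14.6-fold (log2 SE 0.457, adjusted p = 2.31e-05). The GTPase Ifi47 was also under the floor on every IDMB array, at least 10.4-fold lower (adjusted p = 1.64e-06). Isg15, the ubiquitin-like modifier, measured 2064, 1793 and 2101 in UT and 276, 200.3 and 477 in IDMB (6.66-fold lower, adjusted p = 2.16e-04). Ifit2 and Ifit3 were 7.59-fold and 6.57-fold lower (adjusted p = 3.02e-04 and 8.55e-04), with 2 and 1 of their IDMB arrays under the floor. Irf9, a subunit of the factor that switches these genes on, fell 2.74-fold (adjusted p = 1.57e-04). The 2 that rose belong to the Ifi200 family of DNA sensors. Ifi204 measured 9210.4, 10262 and 6119 in UT and 49439, 44823 and 55228 in IDMB (5.96-fold, adjusted p = 5.93e-07) and Ifi202b was 2.14-fold higher (adjusted p = 0.00531). Ifi207, of the same family and in no list, rose 13.9-fold (adjusted p = 2.90e-09); the members are close in sequence and their probe sets may share signal. In antigen presentation 4 of 15 were lower (2 with the actin covariate) and none higher, among them the loading factor Tapbp, 2.71-fold, and the proteasome activator Psme1, 1.82-fold (adjusted p = 6.26e-05 and 0.00675). The class I gene H2-K1 was not called (log2 -0.51, adjusted p = 0.0517), but this turned on the setting: it was called in 5 of 15 alternatives, over which the adjusted p ran from 0.0192 to 0.427.

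The promoters of Isg15, Ifit1 and Ifit3 are shown because these lower genes hold the interferon-stimulated response element, GAAA, NN and GAAA in a row on either strand. Each is the 250 bases before the RefSeq start in GRCm38.p6, with the matches in capitals. Isg15 (chr4:156200819-156201068, minus strand) holds 3 overlapping matches between -78 and -57, Ifit1 (chr19:34640639-34640888, plus strand) 2 at -104 to -95 and -85 to -76, and Ifit3 (chr19:34583279-34583528, plus strand) 2 at -156 to -147 and -122 to -113.
Isg15: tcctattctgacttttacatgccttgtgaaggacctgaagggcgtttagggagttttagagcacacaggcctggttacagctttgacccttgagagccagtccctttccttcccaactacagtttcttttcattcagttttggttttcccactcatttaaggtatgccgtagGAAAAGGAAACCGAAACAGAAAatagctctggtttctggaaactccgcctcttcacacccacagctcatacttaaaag
Ifit1: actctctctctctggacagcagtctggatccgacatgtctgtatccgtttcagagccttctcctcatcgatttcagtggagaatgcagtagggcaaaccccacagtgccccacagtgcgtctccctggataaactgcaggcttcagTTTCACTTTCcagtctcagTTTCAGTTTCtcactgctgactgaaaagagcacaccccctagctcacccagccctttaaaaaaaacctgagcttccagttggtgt
Ifit3: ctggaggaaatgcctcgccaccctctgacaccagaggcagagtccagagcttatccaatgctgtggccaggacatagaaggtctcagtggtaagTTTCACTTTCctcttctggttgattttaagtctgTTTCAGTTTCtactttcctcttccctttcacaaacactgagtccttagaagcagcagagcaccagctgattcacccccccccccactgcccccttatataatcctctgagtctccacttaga
The element was in 3.49% of all promoter windows and in 9 of 18 windows of the interferon list. Among the members with a window it was in 4 of 7 that fell and in 5 of 10 that were not called, so the match did not separate the members that fell from those that did not pass the test. Among all genes called lower it was in 5.29% of windows, against 2.90% of the genes tested. The window of Ifit2 held no match.

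Of 19 chemokines, cytokines and adhesion molecules of inflammation, 8 fell and 2 rose (median -0.56). Ccl2, the monocyte attractant, measured 52741, 33709 and 32854 in UT and 7778, 2269 and 1783 in IDMB (12.3-fold lower, adjusted p = 4.98e-05). The value of IDMB 1 was several times those of IDMB 2 and IDMB 3, and without it the fold was 19.3. The neutrophil attractants Cxcl1 and Cxcl5 fell 2.84-fold and 2.58-fold (adjusted p = 9.58e-04 and 0.00293), the adhesion molecule Vcam1 2.69-fold and the macrophage growth factor Csf1 2.32-fold (adjusted p = 2.27e-04 and 1.14e-04). Cx3cl1, a membrane-bound chemokine, went the other way, from 3378, 4724 and 5769.7 to 15262, 24643 and 38610.5 (5.40-fold, adjusted p = 9.12e-06); a second probe set of this gene gave a log2 difference of -0.12 and was not called. The receptor Il1r1 rose 2.14-fold (adjusted p = 0.00564) but was not called on the 6 arrays alone (0.0528).

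Actin filaments, their motors and the proteins that bundle them formed a list in which many genes fell. Of 39 tested, 17 were lower and 3 higher, with a median of -0.40. Acta2, smooth muscle actin and a mark of contractile fibroblasts, measured 76660.5, 84662 and 67138 in UT and 14034, 9113 and 11129 in IDMB. It was 6.74-fold lower (SE 0.174, adjusted p = 3.04e-08), with both groups tight and far apart. Tropomyosin Tpm1 fell 5.05-fold, from 51266, 52005 and 45848 to 10838, 9221 and 9512 (adjusted p = 2.98e-07). Marcks, an actin cross-linker at the membrane, went from 37779.9, 40713 and 37456 to 10984, 7972 and 9012, 4.18-fold lower (SE 0.131, adjusted p = 3.04e-08). The myosin light chain Myl9 fell 5.79-fold, calponin Cnn2 3.66-fold and Tagln 4.40-fold (adjusted p = 0.00192, 4.60e-05 and 0.00773). The members that rose include Gsn, the filament-severing protein gelsolin (1.63-fold, adjusted p = 0.00587), and the small GTPase Rhob (2.02-fold, adjusted p = 0.00623). Beta actin, Actb, was not called (log2 -0.59, adjusted p = 0.294). With the actin 3' to 5' ratio as a covariate 9 of the 39 were lower and 1 higher. Acta2, Tpm1, Marcks, Myl9, Cnn2 and Tagln stayed called there. Smooth muscle markers moved with this list: all 3 tested (Acta2, Tagln and Actg2) fell, their panel summed to 76930 to 98778 in UT and 14429 to 20160 in IDMB, and Myh11, its defining myosin, was at the floor on all 6 arrays.

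The promoter of Myl9 is given because this lower gene holds a CArG box, the site of serum response factor. It lies at chr2:156775214-156775463 on the plus strand of GRCm38.p6, with the box at -161 to -152 in capitals.
Myl9: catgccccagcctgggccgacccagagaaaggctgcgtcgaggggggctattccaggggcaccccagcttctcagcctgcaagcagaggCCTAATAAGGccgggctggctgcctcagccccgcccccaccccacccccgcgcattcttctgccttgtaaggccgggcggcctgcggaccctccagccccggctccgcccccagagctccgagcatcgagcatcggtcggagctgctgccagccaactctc
A CArG box was in 1.57% of all promoter windows and in 6 of 31 windows of this list, 3 of 13 that fell (Cnn2, Myl9 and Fhl1) and 3 of 15 that were not called (Vcl, Actg1 and Fhl2). The window of Acta2 held none. In all 11 motifs were searched and the windows of 17 genes examined, of which Tagln, Actg2, Angptl4 and Orm1 were not matched to a window. The 6 promoters printed here were chosen after their matches had been seen. The other motifs were the full cyclic AMP response element (TGACGTCA), the C/EBP site TTGCNNAA, the AP-1 site TGANTCA, the TEAD site GGAATG, and the DR1 element (AGGNCA, N and AGGNCA in a row) with a relaxed form. Shares are given here for genes called higher beside all genes tested, with no test. The C/EBP site was in 12.1% of windows of genes called higher and 8.01% of those tested, the AP-1 site in 4.33% and 5.38%, the TEAD site in 10.8% and 11.1% (14.1% of genes called lower), the full cyclic AMP element in 2.17% and 3.20%, the metal element in 38.7% and 36.2%, DR1 in 0.310% and 0.227%, and its relaxed form in 0.310% and 0.454%. Plin2 held no relaxed DR1 element.

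The CCN proteins, secreted regulators of matrix and growth factor signalling, fell together: 4 of 5 tested were lower, with a median of -1.53. Ccn3 measured 13149.5, 16669.5 and 65682 in UT and 635, 322 and 5427 in IDMB. It was 23.5-fold lower (SE 0.752, adjusted p = 5.12e-04), and this fold was unsteady, at 14.3 without UT 3, 13.1 without IDMB 2 and 53.8 without IDMB 3. Ccn2, connective tissue growth factor, measured 1859, 998 and 849.7 in UT and 106, 156 and 55.4 in IDMB, 2 of them under the floor (7.89-fold lower, adjusted p = 4.38e-05). Ccn1 and Ccn5 fell 2.89-fold and 2.83-fold (adjusted p = 0.00363 and 2.78e-04), and Ccn4 was not called (log2 -0.24, adjusted p = 0.586).

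Of 16 collagens tested, 3 rose and 3 fell, or 5 fell without UT 1. The fibril-forming Col1a1 and Col1a2 fell 1.81-fold and 1.60-fold (adjusted p = 0.00120 and 0.00327). The basement membrane chains Col4a1 and Col4a2 rose 2.66-fold and 2.80-fold, Col4a1 from 19904, 20499 and 23875 to 53053, 54871 and 63223 (adjusted p = 3.42e-06 and 1.85e-05). Their arrays did not overlap in any of these 4 genes (27.8% of all genes). Among 39 other matrix proteins and crosslinkers 15 fell and 4 rose (median -0.54), or 9 and 1 with the actin covariate. The 4 that rose were 2 without UT 1, UT 2 or IDMB 1. Decorin (Dcn), a proteoglycan that binds collagen and TGF-beta, fell 7.97-fold, from 7358, 11975 and 8452 to 722, 1768 and 1154 (adjusted p = 4.74e-06). The microfibril protein Mfap5 fell 8.62-fold, from 8794, 5512 and 9232 to 1362, 605 and 848, and fibrillin Fbn2 5.04-fold (adjusted p = 1.23e-06 and 7.57e-05). Osteoglycin (Ogn) fell 7.20-fold (adjusted p = 0.00242), or 11.1-fold without IDMB 3. Pcolce, which speeds removal of the collagen propeptide, was lower by 3.996-fold and the collagen chaperone Serpinh1 by 2.69-fold (adjusted p = 1.18e-05 and 5.58e-05). Versican (Vcan), a large chondroitin sulphate proteoglycan, rose 4.55-fold, from 18506, 17990.3 and 7623 to 72766, 61822 and 53126 (adjusted p = 2.21e-05), and laminin Lamb1 2.33-fold (adjusted p = 0.00438). Fibronectin, Fn1, was not called (log2 -0.072, adjusted p = 0.817).

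Of 30 proteases and inhibitors 6 fell and 2 rose, Serpina3n and Ctla2b. Ctla2b, which resembles the propeptide of cathepsins, had one of the largest rises; its probe set may share signal with its close relative Ctla2a. It measured 469.8, 457 and 186 in UT and 28167, 14284 and 7135 in IDMB (41.6-fold, SE 0.451, adjusted p = 5.93e-07). The IDMB values spanned a wide range, yet the lowest was well above the highest UT value. The plasminogen activator Plat fell 6.31-fold, from 3188, 3419 and 4134 to 631, 695 and 409, and Timp3, an inhibitor of metalloproteases, 3.71-fold (adjusted p = 7.54e-06 and 7.57e-05). Mmp16, a membrane metalloprotease in no list, fell 10.2-fold with 2 IDMB arrays under the floor (adjusted p = 3.20e-05). Of 24 adhesion molecules 7 fell and 1 rose, or 4 and 0 with the actin covariate. Among them cadherin Cdh11 of mesenchymal cells fell 2.37-fold and integrin alpha V (Itgav) 1.60-fold (adjusted p = 6.61e-04 and 0.00503).

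With the actin 3' to 5' ratio as a covariate, which made the standard errors 1.42 times as large, 388 of the 830 called genes stayed called and none changed direction. Of the genes given here with values it left these without a call, with limma adjusted p in brackets: Acadm (0.0588), Adipoq (0.116), Cebpa (0.101), Cxcl12 (0.0516), Gclm (0.101), Gsn (0.165), Hk2 (0.0620), Ifi202b (0.172), Itgav (0.0852), Lamb1 (0.112), Myc (0.0831), Npc1 (0.172), Npr3 (0.346), Pdk4 (0.0733), Pparg (0.110) and Sfrp2 (0.105). Some genes named without values lost their call too. Me1, Cry1 and Kif4 were not called there, and at most 1 of Hmgcs1, Sqle, Fdps and Msmo1 was. The list counts hold further losses. Among the lists described, the covariate left 15 higher and 2 lower of the 25 glucocorticoid receptor targets, 7 higher and 1 lower of the 15 fat cell factors, 5 higher of the 7 lipid droplet genes, 4 higher of the 7 secreted products, 6 higher and 4 lower of the 12 acute phase and complement genes, 1 higher and 8 lower of the 21 interferon genes, 2 higher and 6 lower of the 19 inflammation genes, and 1 higher and 1 lower of the 25 insulin and IGF genes. It left 2 lower of the 21 cyclic nucleotide enzymes and kinases, 2 higher and 1 lower of the 29 glucose genes, and 2 higher and 1 lower of the 28 BMP and TGF-beta receptors, antagonists and mediators. In fatty acid and triglyceride synthesis 4 were higher and none lower there, and 2 of the 16 collagens were lower and 3 higher. None of the 3 proteasome genes, of the 2 oxidative phosphorylation genes or of the 1 mitosis gene that were called stayed called, 1 DNA replication gene was, and the counts for the cyclic AMP targets, fatty acid uptake, the Notch list, the CCN family, the proteases and inhibitors, and the cyclins and growth arrest genes were unchanged.

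**Figure D3:**
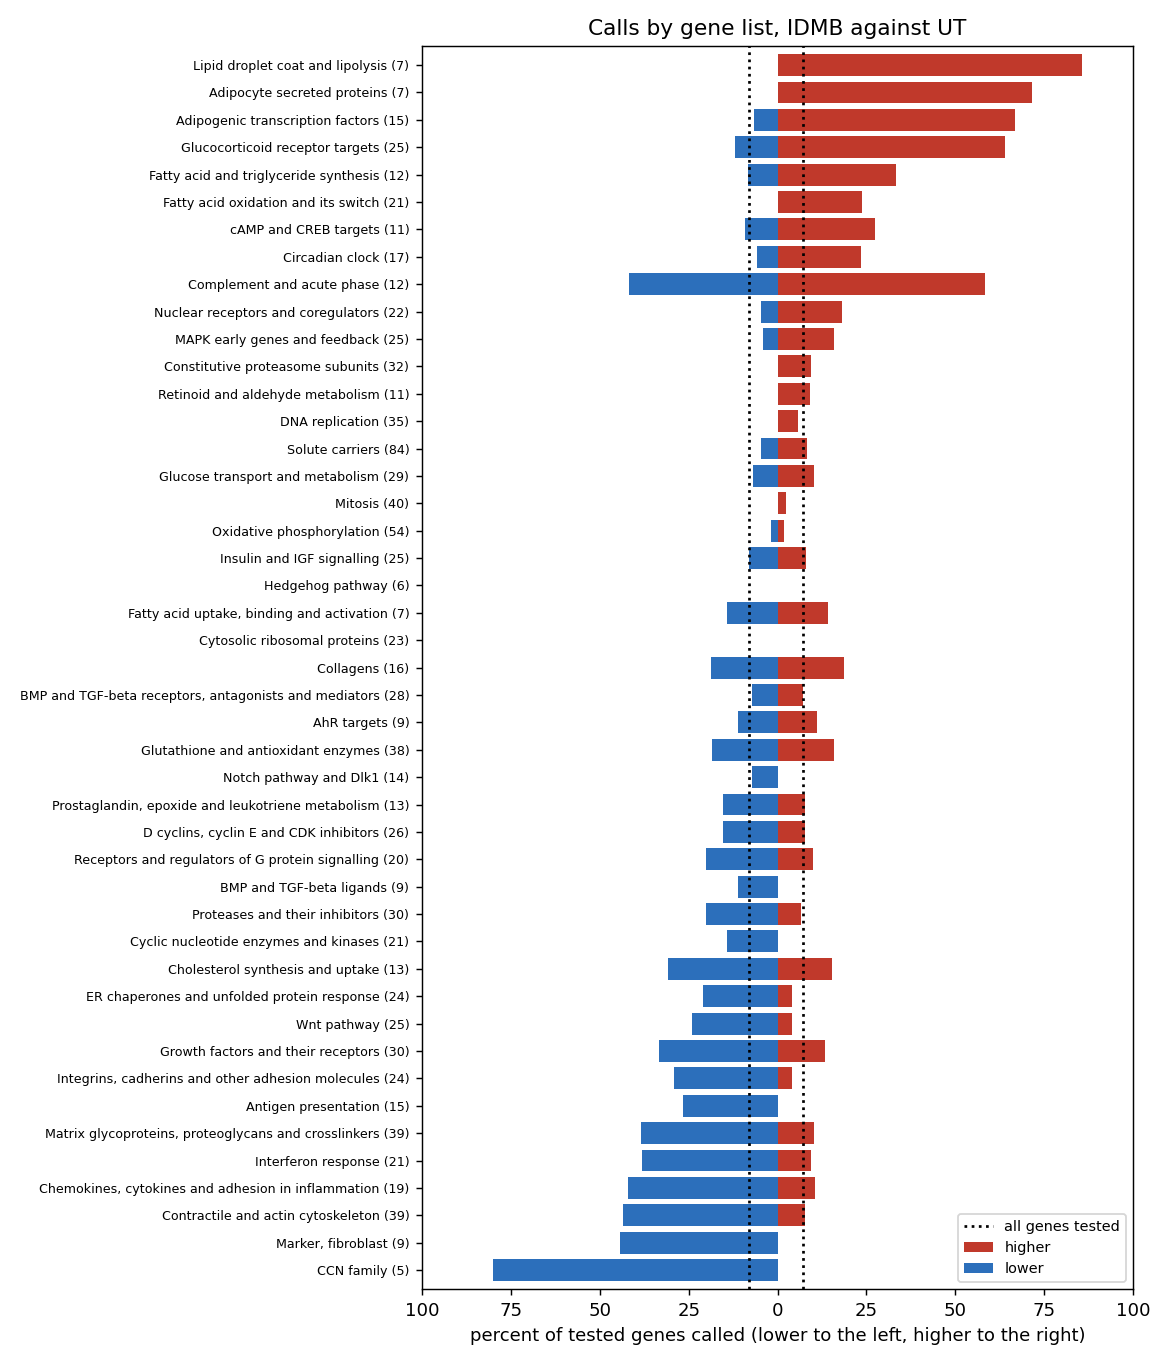
Percent of tested genes called higher (red, to the right) and lower (blue, to the left) in IDMB against UT for the gene lists with at least 5 genes tested, ordered by the difference between the 2 percentages, with the number of genes tested in brackets. The dotted lines mark the 7.17% and 8.09% of all 5438 genes. Lipid droplet, secreted fat cell, fat cell factor and glucocorticoid target lists lie at the top. The CCN, fibroblast marker, contractile, inflammation, interferon and matrix lists lie at the bottom.

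Among ligands and receptors that steer mesenchymal cells, of 9 BMP and TGF-beta ligands only Bmp4 was called. Bmp4, which commits these cells to the fat or bone lineage, measured 27411, 21260.0 and 30128 in UT and 1757, 2676 and 2999 in IDMB (10.8-fold lower, SE 0.244, adjusted p = 1.03e-07). Its groups lay far apart, and its second probe set fell 13.8-fold. Of 28 receptors, antagonists and mediators of the same pathways 2 rose and 2 fell. The Wnt list gave 6 lower and 1 higher of 25, or 3 lower with the actin covariate. The secreted antagonists Sfrp1 and Sfrp2 fell 2.33-fold and 3.24-fold and the receptor Fzd2 2.37-fold (adjusted p = 0.00357, 0.00284 and 2.68e-05), while the nuclear partner of beta-catenin, Lef1, rose 3.50-fold (adjusted p = 1.66e-04). A pair of genes of this pathway outside the list were among the largest changes: Rspo2, which amplifies Wnt signals, fell 8.38-fold, from 13309, 14695 and 14637 to 2077, 1666 and 1404 (adjusted p = 2.79e-06), and the membrane antagonist Apcdd1 rose 10.2-fold, from 792, 969.8 and 658 to 5285, 12395 and 8214 (adjusted p = 5.93e-07). The Notch list had 1 call of 14, Rbpj, the DNA-binding partner of Notch, which fell 2.19-fold (adjusted p = 9.30e-04). Dlk1, the preadipocyte inhibitor in that list, had a log2 difference of -0.53 (adjusted p = 0.141). None of 6 Hedgehog genes was called by limma, with 3 of them (Ptch1, Gli3 and Gas1) at an unadjusted p under 0.05.

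Of 30 growth factors and receptors 10 fell and 4 rose (median -0.52), with 6 lower without UT 1, and 5 lower and 2 higher with the actin covariate. Fgf7, a factor made by fibroblasts for epithelia, fell 3.90-fold, from 9418, 8108 and 7851 to 2001, 2021 and 2508 (adjusted p = 4.26e-05). The PDGF receptor Pdgfrb fell 2.40-fold and the LIF receptor Lifr 2.94-fold (adjusted p = 6.61e-04 and 2.60e-04). Kitl, stem cell factor, rose 3.10-fold, from 6445, 6969 and 8032 to 25322, 22063 and 19163 (adjusted p = 3.56e-06), and Gas6, the ligand of the TAM receptors, 2.27-fold (adjusted p = 0.00346). In insulin and IGF signalling 2 of 25 rose and 2 fell. Irs2, which relays signals from the insulin receptor, rose 5.17-fold (adjusted p = 0.00350), and the receptor Igf1r was not called (log2 -0.56, adjusted p = 0.103). The binding protein Igfbp3 read 53.3, 75.5 and 77.9 in UT, all under the floor, and 4284, 1847 and 1871 in IDMB, at least 17.1-fold higher (adjusted p = 2.07e-05); the other 3 IGF binding proteins tested were not called. Among receptors on the cell surface Npy1r, for neuropeptide Y, measured 4926, 6279.7 and 1338 in UT and 296, 81.7 and 313 in IDMB (14.6-fold lower, adjusted p = 1.76e-04), or 23.5-fold without UT 3. Npr3, which clears natriuretic peptides, fell 4.03-fold (adjusted p = 0.00415), and Tnfrsf11b, the decoy receptor that restrains bone resorption, 8.20-fold (adjusted p = 1.33e-04).

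Of 26 cyclins of G1, CDK inhibitors and growth arrest genes, 4 fell and 2 rose. Ccnd1, cyclin D1, measured 12945, 9665 and 13782 in UT and 2922, 1924 and 1113 in IDMB (6.51-fold lower, SE 0.321, adjusted p = 2.46e-05). Btg1, an antiproliferative gene, rose 5.32-fold, from 5577, 7203 and 3299.6 to 30512, 26023 and 25097 (adjusted p = 3.73e-06). Gadd45g rose 2.60-fold while its relative Gadd45b fell 2.81-fold and Gas2, a gene of arrested cells, 5.29-fold (adjusted p = 4.61e-04, 0.00636 and 8.54e-05). Of 35 DNA replication genes 2 were higher (Pcna and Orc2) and of 40 mitosis genes 1 (Kif4), with none lower, shares below those over all genes. Cdk1 and Mki67 were not called (log2 -0.18 and -0.086, adjusted p = 0.851 and 0.954). Fosl1, an AP-1 subunit, rose 9.65-fold, from 428, 155 and 318 to 2110.5, 2895 and 3111 (adjusted p = 1.16e-05), and Myc 1.98-fold (adjusted p = 0.00587). The clock list gave 4 higher and 1 lower (Cry1) of 17, or 2 and 0 with the actin covariate, with the repressor Nr1d1 2.27-fold higher (adjusted p = 4.78e-04).

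Among metabolic genes outside lipid storage, Ephx2, the soluble hydrolase of fatty acid epoxides, read 121, 290.5 and 291 in UT and 3825, 7698 and 3786 in IDMB with UT 1 under the floor (20.95-fold, SE 0.444, adjusted p = 4.81e-06). Gclc, the catalytic subunit of the enzyme that starts glutathione synthesis, rose 8.94-fold, from 1578, 1461 and 1077 to 19024, 12394 and 7522 (adjusted p = 6.83e-06), while its partner Gclm fell 1.92-fold (adjusted p = 0.00873). The glutathione transferase Gstt1 fell 9.51-fold (adjusted p = 1.14e-04), or 14.99-fold without IDMB 1 and 6.17-fold without IDMB 3. Of 29 glucose genes 3 rose and 2 fell (Pygb and Pdk3), with a median of -0.15. Those that rose were lactate dehydrogenase Ldhb by 4.46-fold, pyruvate carboxylase Pcx by 4.70-fold and hexokinase Hk2 by 2.32-fold (adjusted p = 3.86e-05, 1.57e-04 and 0.00307). The receptor of dioxin, Ahr, fell 4.09-fold, from 3332, 4642 and 7503 to 1302, 889 and 1464 (adjusted p = 6.98e-05), while its feedback regulator Tiparp rose 4.84-fold (adjusted p = 4.98e-05). In the list of dioxin receptor targets, 1 of 9 rose (Tiparp) and 1 fell (Ahr). The log2 difference of Tiparp was 2.27 here, but -0.45 with TCDD on both sides and -0.088 with EGF and TCDD. Both gaps passed limma's test of the difference between pairs (adjusted p = 0.0140 and 0.0239). Lists of housekeeping functions stayed near or below the background of 15.3%: 2 of 54 oxidative phosphorylation genes, 3 of 32 proteasome subunits and 0 of 23 ribosomal proteins were called by limma, with 0 of the 23 at an unadjusted p under 0.05. Some genes of nucleolar ribosome assembly, picked after their values were seen and in no list, were higher: Rrs1 by 3.13-fold, Gnl3 by 3.35-fold and Pum3 by 3.98-fold (adjusted p = 4.63e-05, 3.67e-05 and 5.28e-06). For Rrs1 the log2 difference was 1.65 here, but -0.59 with TCDD on both sides, -0.40 with EGF and -0.28 with both. Pum3 had 1.99 here and 0.19, 0.11 and 0.47 there. Each of these gaps passed limma's test of the difference between pairs (adjusted p from 0.00678 to 0.0335). Gnl3 had 1.74 here and 0.17 with EGF and TCDD (adjusted p of the gap 0.0398).

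The same mix was tested against 3 other pairs of groups that share no array with IDMB and UT, each with 2 arrays against 2: with TCDD on both sides, with EGF on both, and with EGF and TCDD on both. These pairs had 12.8%, 10.8% and 6.5% of probe sets called. Split by direction, 6.53% were higher and 6.28% lower with TCDD, 5.52% and 5.27% with EGF, and 3.45% and 3.06% with both. Of the 390 genes higher in IDMB against UT, 346 had the same sign with TCDD, 345 with EGF and 326 with both, and 170, 184 and 125 were called in that direction. Of the 440 lower genes 391, 390 and 387 had the same sign and 165, 143 and 94 were called. Calls in the opposite direction numbered 5, 1 and 1 for the higher genes and 1, 3 and 0 for the lower genes. In all 4 pairs 104 genes were called higher and 59 lower, while 162 and 210 were called in the pair without EGF or TCDD alone. A call missing from a pair of 2 against 2 arrays does not show a smaller effect. The actin 3' to 5' ratio was higher with the mix in these pairs too. It was 1.43 and 1.23 with TCDD alone, and 1.98 and 2.07 with TCDD and the mix. With EGF it was 1.52 and 1.90 without the mix and 2.39 and 2.24 with it. With EGF and TCDD it was 1.93 and 1.64 without the mix and 2.48 and 3.80 with it. The part of this ratio in the shared signs and calls was not tested. Among the members described above, Rgs2 had log2 differences of 5.44, 4.47 and 4.77 in the 3 other pairs beside 4.74, and Fkbp5 3.10, 3.16 and 2.48 beside 4.29. Acta2 had -3.50, -3.82 and -3.46 beside -2.75, Cebpb 1.92, 2.15 and 1.82 beside 1.38, and Isg15 -1.57, -3.14 and -2.64 beside -2.74. All of these were called but Isg15 with TCDD (adjusted p = 0.0512).

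**Figure D4:**
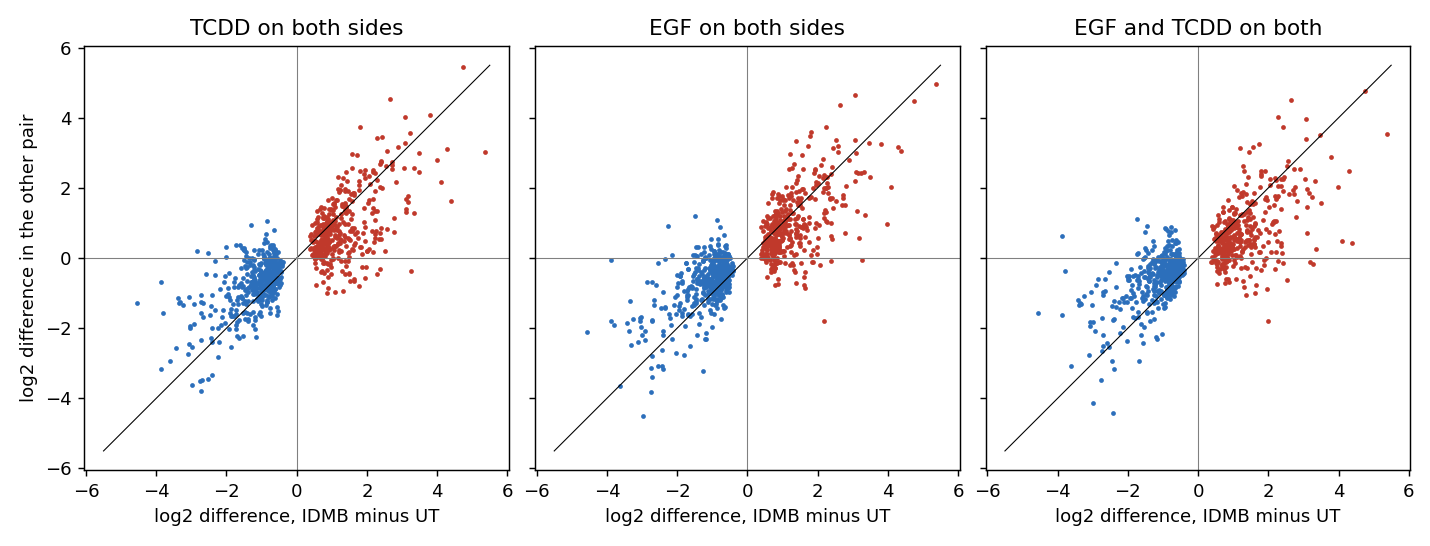
Log2 difference with the mix in the pair with TCDD, EGF or both on each side (vertical axis, 1 panel a pair, 2 arrays against 2) against that in IDMB over UT (horizontal axis) for the 830 genes called in IDMB against UT. Genes called higher there are red, genes called lower blue, and the diagonal marks equal differences. Most points keep their sign, 346 and 391 with TCDD, 345 and 390 with EGF, and 326 and 387 with both.

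The difference between pairs was itself tested. It passed for 27 probe sets with TCDD (0.378%), 18 with EGF (0.252%) and 54 with both (0.757%). These counts were unsteady: leaving out 1 of the 6 arrays gave 16 (without UT 2) to 69 (without IDMB 1), 7 (without UT 2 or IDMB 2) to 35 (without IDMB 1), and 22 (without UT 2) to 72 (without IDMB 3), and the actin covariate took the last from 54 to 24. Differences above 0 made up 0.168%, 0.112% and 0.336% of probe sets, and those below 0 0.21%, 0.14% and 0.421%. These 3 tests share the UT and IDMB arrays. The lipid genes Pnpla2, Plin2 and Gpam had a smaller rise, by this test, in 2 of the 3 other pairs each. They were picked after their values were seen. Apart from Gpam with EGF, their differences lay outside the 8 largest in each direction. Plin2 measured 13687 and 13211 on the TCDD arrays and 18009.9 and 21073 with the mix, a log2 difference of 0.53 beside 2.35 without TCDD (difference -1.81, SE 0.312, limma adjusted p = 0.0142, or 0.0634 with no filter). With EGF it went from 12715 and 13179 to 37424 and 45781, a log2 difference of 1.68, and the gap did not pass (0.397). With EGF and TCDD the difference for Plin2 was 0.36 (adjusted p of the gap 0.0102) and for Gpam -0.052 beside 1.88 (0.00953). Gpam had 0.23 with EGF (0.0223, but 0.0566 without UT 1, 0.0562 without IDMB 2, 0.0635 with no filter and 0.0674 with no trend) and 0.72 with TCDD, where the gap did not pass (0.117). Pnpla2 rose by 1.31 with TCDD and 1.46 with both, beside 3.10 (0.00678 and 0.0102), and by 2.45 with EGF, where the gap did not pass (0.327).

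Fosl1 and Mapk6, an atypical MAP kinase, were called higher with the mix in the pair without EGF or TCDD and in no other pair. Fosl1 measured 3068 and 1297 in TCDD and 2133 and 1121 in IDMB with TCDD, 3217 and 2791 in EGF and 2701 and 3043 in IDMB with EGF. These are all above the UT values, and the mix differed by -0.37 and -0.064 there, beside 3.27 (adjusted p of the gap 0.00812 and 0.0196, the second lost without IDMB 2 at 0.0562). With no filter neither gap passed (0.0590 and 0.0886). Mapk6 had differences of -0.64, -0.54 and -1.001 beside 1.63 (adjusted p of the gap 0.00107, 0.00196 and 1.45e-04). Ephx2 and Apcdd1 had 0.43 and 0.27 with EGF and TCDD beside 4.39 and 3.35 (0.0149 and 0.00763). The gap of Ephx2 was not called with the actin covariate (0.0523) or with the floor at the 10th percentile (0.114). In the same pair Klf5 had -1.79 beside 1.98, Npy1r 0.62 beside -3.87 and Igfbp3 0.49 beside 4.10. Their gaps passed too (limma adjusted p = 0.0265, 0.0260 and 0.0335). Other genes described above whose gap passed there include Abhd5, Klf4, Kitl, Lef1, Gas6, Pdgfrb and Marcks. Among genes that fell, Bmp4 fell less with EGF and TCDD (-1.19 beside -3.43, 0.0138, or 0.0665 with no filter). Cxcl12, a chemokine that retains stem cells, fell 1.80-fold from 62861, 75688 and 65358 to 30474, 33713 and 51478 without EGF or TCDD, while with TCDD it measured 58014 and 44148 before and 101119 and 108060.0 with the mix. Its differences were 1.05 with TCDD and 1.09 with EGF beside -0.85 (0.00812 and 0.0150). Of the other probe sets of Cxcl12 in IDMB against UT, 1 was lower by 3.05-fold and called and 1 by 1.36-fold and not called. Ccn5 went from -1.50 without EGF to 1.20 with it (0.00565).

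**Figure D5:**
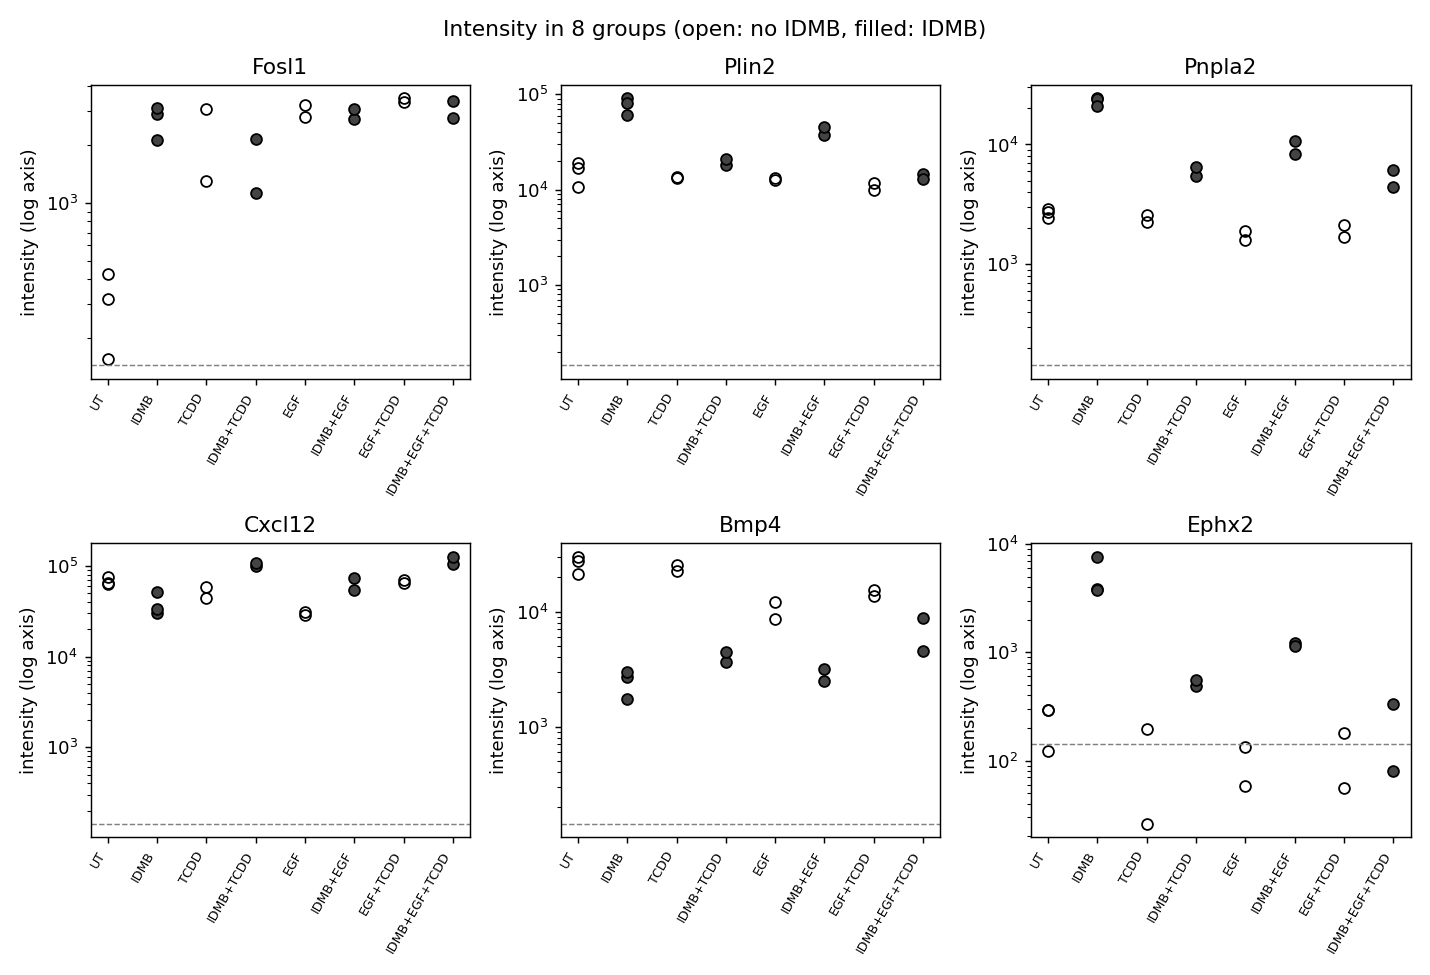
Intensity on each of the 18 arrays (log axis) in the 8 groups for 6 genes whose difference between mix and no mix depended on EGF or TCDD. Open circles are groups without IDMB and filled circles groups with it, 3 arrays each for UT and IDMB and 2 for the others. For Fosl1 every array given TCDD or EGF lies above the 3 UT arrays, and for Plin2 and Pnpla2 the step with the mix is smaller with TCDD than from UT to IDMB.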

How the data were processed

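The values were the intensities the authors deposited, 1 linear value per probe set and array, with nearly equal trimmed means across arrays; no software for them is named in the labels. They were analysed without further scaling. Values under the 20th percentile were raised to it, and probe sets were tested with limma 3.58.1 (R 4.3.3) where the highest of 8 group means reached the median of all log2 values. The fit took 8 group means over 18 arrays with variance moderated by a trend, and Benjamini-Hochberg adjustment ran over all 7134 probe sets. The number of arrays limits the precision. Gene lists, promoter searches and figures were run with Python 3.11.15, and the fit was tested on simulated data. Alternatives changed the floor, scaling, filter, arrays, trend, a covariate for the actin 3' to 5' ratio, a replicate block, and left out each of 6 arrays in turn.

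The comparison and the gene lists were chosen with earlier results of these data known. Named genes were Rgs2, Fkbp5, Cebpb and Acta2, the 15 largest changes each way without overlap, called list members, the first 4 tested members of each list, and the 8 largest differences each way between pairs. Among these, the genes given in the text were narrowed after values and stability had been seen. Of the 135 called genes counted for this, 133 stayed called without any 1 array, against 491 of all 830. These 135 are therefore steadier than the rest. Some genes named only as list members were not among the 135. Of those, Me1, Hmgcs1, Sqle, Fdps and Msmo1 were not called without UT 1, and Kif4 was not called without UT 2. Actb, Anxa1, G0s2, Glul, Nfkbia and Gnl3 lie outside the rule and were picked after their values were seen. Same-numbered UT and IDMB arrays had deviations correlated at 0.44, 0.059 and 0.25, so the numbers were not taken to pair the arrays.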

Additional observations from a re-analysis of the deposited data

Results flagged for a closer look

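The effect of the mix differed between the pair without EGF or TCDD and another pair for 27 probe sets with TCDD, 18 with EGF and 54 with EGF and TCDD, by limma's test of the difference itself. Each value below is the log2 effect of the mix in the other pair minus that without EGF or TCDD. With TCDD it was -3.64 for Fosl1, -2.27 for Mapk6, -1.81 for Plin2, -1.79 for Pnpla2 and 1.90 for Cxcl12. With EGF it was -3.33 for Fosl1, -2.17 for Mapk6, -1.65 for Gpam, 1.95 for Cxcl12 and 2.70 for Ccn5. With EGF and TCDD it was -3.96 for Ephx2, -3.09 for Apcdd1, -2.63 for Mapk6, -1.99 for Plin2, -1.93 for Gpam, -1.64 for Pnpla2 and 2.24 for Bmp4. All 3 sets share the UT and IDMB arrays, so a value that is unusual on those arrays enters each of them.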

How the results depend on the processing

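With the actin 3' to 5' ratio as a covariate 229 probe sets were higher and 253 lower, against 475 and 529, and the difference with EGF and TCDD passed for 24 against 54. On the 6 arrays alone 334 were lower. The differences between pairs were the least stable counts. With the floor at the 40th percentile 49 passed with TCDD and 32 with EGF, against 27 and 18; without a trend 11 passed with EGF, and with no filter 23 passed with EGF and TCDD. A fit with the replicate number as a block gave 527 higher and 596 lower, and 52, 32 and 91 differences between pairs; the arrays share only a number. Leaving out 1 of the 6 arrays gave 379 to 418 higher, 401 to 536 lower, and 16 to 69, 7 to 35 and 22 to 72 differences. With arrays scaled to the same median 51.6% of calls were higher, against 47.3%. The cause of these shifts was not tested. No called gene changed direction under any alternative run. Among genes not called, the log2 difference took both signs over the 6 fits that left out 1 array: from -0.42 to 0.075 for Cdk1, -0.47 to 0.17 for Cpt1a, -0.21 to 0.0098 for Fn1, -0.83 to 0.39 for G0s2, -0.18 to 0.39 for Glul, -0.44 to 0.27 for Mki67 and -0.15 to 0.12 for Lep. It also turned for G0s2 with the higher floor (0.071) and for Lep with median scaling (0.030), quantile normalization (0.0031) and the actin covariate (0.013).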
